A study of Homo sapiens with 18 samples.

Results

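The insulin-like growth factor (IGF) receptors, the insulin receptor substrate (IRS) adaptors and 4 IGF-binding proteins were followed in oestrogen receptor-positive breast cancer cells given a CDK4/6 inhibitor. The 9 genes were taken by name from the 60656 gene rows of the count table: the receptors IGF1R, INSR and IGF2R, the adaptors IRS1 and IRS2, and the binding proteins IGFBP2, IGFBP3, IGFBP4 and IGFBP5. RNA was measured by 3′-end sequencing (Lexogen QuantSeq) in 18 libraries of 2 established lines, CAMA-1 and ZR-75-1 (CAMA1 and ZR751 in the labels). The labels give all cells as parental and wild-type. The 6 groups, with 3 libraries each, were the 2 lines given DMSO, 500 nM abemaciclib or 500 nM palbociclib for 5 days in medium with serum. Abemaciclib and palbociclib block the kinases CDK4 and CDK6, and DMSO is their solvent. Each line stands for 1 model of the disease, and serum is itself a source of IGFs.

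IGF1 and IGF2 are secreted ligands that bind IGF1R, a receptor tyrosine kinase. INSR is its close relative and binds insulin and, in one isoform, IGF2. Both receptors phosphorylate IRS1 and IRS2, which dock phosphatidylinositol 3-kinase (PI3K) and so start signalling through AKT. IGF2R has no kinase domain and carries IGF2 to the lysosome, along with enzymes that bear mannose 6-phosphate. The IGF-binding proteins are secreted and hold IGFs away from, or deliver them to, the receptors. In luminal breast cells, oestrogen receptor and IGF signalling are known to act together, and IGF1R, IRS1 and IGFBP4 are described as oestrogen-responsive genes.

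IRS2 and IGFBP5 were the 2 members called in all 4 comparisons of a drug with DMSO, IRS2 lower and IGFBP5 higher, so their promoters are shown here to set the pair side by side. Each window holds 300 bases from RefSeq (GRCh38.p14), from 250 before to 50 after the gene's start, read 5′ to 3′ along the gene. IRS2 lies on the minus strand at chr13:109786534-109786833 and IGFBP5 on the minus strand at chr2:216695500-216695799. Capitals mark the GC box, GGGCGG on either strand, including overlapping matches.

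IRS2 promoter: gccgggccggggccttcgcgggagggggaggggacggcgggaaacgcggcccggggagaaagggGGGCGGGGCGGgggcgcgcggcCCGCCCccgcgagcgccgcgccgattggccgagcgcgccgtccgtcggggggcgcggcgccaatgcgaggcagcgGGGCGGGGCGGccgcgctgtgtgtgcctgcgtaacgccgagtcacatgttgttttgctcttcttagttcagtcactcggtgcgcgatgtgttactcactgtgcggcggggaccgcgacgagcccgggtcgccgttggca

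IGFBP5 promoter: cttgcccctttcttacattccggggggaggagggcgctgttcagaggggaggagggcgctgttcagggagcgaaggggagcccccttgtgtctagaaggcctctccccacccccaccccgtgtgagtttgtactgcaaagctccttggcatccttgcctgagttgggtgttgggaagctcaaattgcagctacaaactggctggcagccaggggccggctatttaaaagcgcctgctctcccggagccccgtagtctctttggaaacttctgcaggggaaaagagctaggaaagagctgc

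The IRS2 window held 5 GC boxes and was 75.7% G or C, whereas the IGFBP5 window held 0 and was 59.0% G or C. Both lie within the range of the other members, whose windows ran from 55.3% (IGFBP2) to 79.7% (IGF1R) with 0 to 6 boxes. The median over all RefSeq promoter windows was 58.7%. All 9 genes had a window, 11 in all, and 9 of these windows, from 8 genes, had at least 1 GC box. Of the 35116 windows in the table, 45.0% had one. The GC box was searched after the other motifs had been looked at. None of the 11 windows held a full oestrogen response element (GGTCA, any 3 bases, TGACC), which 0.057% of all windows held. None held the forkhead core GTAAACA either, against 3.42% of all windows, nor the E2F sites TTTGGCGC and TTTCGCGC, against 0.652% and 0.515%. Both strands were searched, and a match or its absence describes letters in these windows only.

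Library totals ran from 2308442 to 4146549 counts, so that 1 count stood for 0.241 to 0.433 CPM, the count scaled to a common library size. Levels below are CPM relative to library totals adjusted by the trimmed mean of M values (TMM), with all 18 libraries on 1 scale. As each transcript is read mainly at its 3′ end, levels are compared between groups and not between genes. Markers of the tissue the lines come from were present: 8 of 8 luminal epithelial markers were above a floor of 3 counts in both lines, whereas 0 of 3 leukocyte and 0 of 2 endothelial markers were. Of 4 basal or myoepithelial markers 1, ACTA2, was above it in each line, whereas KRT5 was at 0 counts in both and KRT14 and TP63 had 0 to 3 in CAMA-1 and 0 in ZR-75-1. Of 3 fibroblast markers COL1A1 was above it in both lines and COL3A1 in CAMA-1, and PDGFRB was at 0 counts throughout. The summed luminal markers of CAMA-1 ran from 4711 to 5022 CPM with DMSO, 6360 to 6484 with abemaciclib and 6681 to 6748 with palbociclib. In ZR-75-1 the luminal sum ran from 6272 to 6520 with DMSO, 7347 to 7542 with abemaciclib and 5767 to 5987 with palbociclib. The summed basal or myoepithelial markers of CAMA-1 ran from 1.15 to 3.19 CPM with DMSO, 7.41 to 10.7 with abemaciclib and 5.69 to 6.26 with palbociclib. In ZR-75-1 that sum ran the other way, at 4.84 to 11.1, 0.664 to 1.97 and 2.24 to 4.71. The summed fibroblast markers overlapped between treatments in each line, at 14.4 to 24.1 CPM in CAMA-1 with DMSO and 16.1 to 19.7 with drug, and 19.98 to 28.7 in ZR-75-1 with DMSO and 23.2 to 33.9 with drug. Within them, COL3A1 had 0.639 to 1.67 CPM in CAMA-1 with DMSO, 3.75 to 8.58 with abemaciclib and 4.33 to 6.80 with palbociclib, against 0 in every ZR-75-1 library. In CAMA-1, 0 DMSO libraries and 6 drug libraries carried COL3A1 past the low-count filter, so its values are given without a test. The part of these markers in the member results was not tested. The proliferation genes MKI67, CCNA2, RRM2, TOP2A and CDK1 fell with both drugs in both lines. Mitochondrial genes took 15.7% ± 0.87 of counts in CAMA-1 with DMSO (SD, n = 3), 24.8% ± 1.37 with abemaciclib and 23.6% ± 1.15 with palbociclib. In ZR-75-1 that share was 20.2% ± 2.68, 19.5% ± 1.01 and 18.98% ± 0.70. With mitochondrial genes left out, each of the 8 members other than IGFBP3 in CAMA-1 kept its call against DMSO for both drugs.

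**Figure D1:**
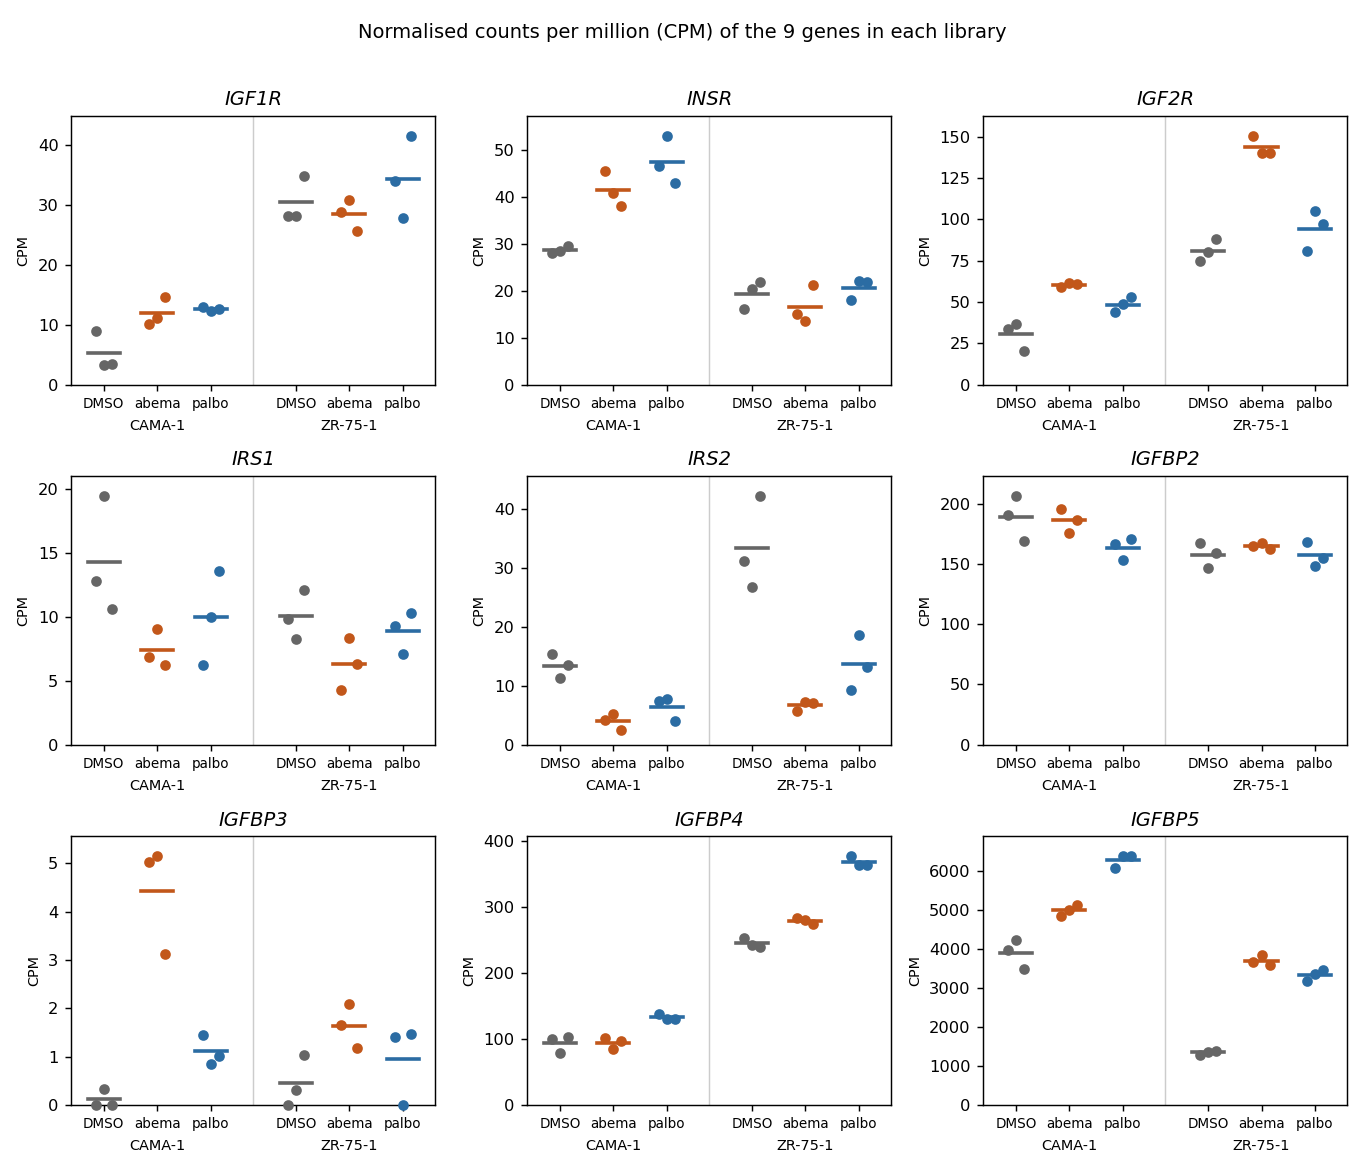
Normalised counts (CPM, vertical axis, starting at 0, a scale for each gene) of the 9 genes in each of the 18 libraries (points) by line and treatment, with group means as bars. IRS2 lay below its DMSO libraries in every drug library of both lines, and IGFBP5 above them.

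The first question was how each member responded to each drug in each line. A member was called at an adjusted p under 0.05 in the edgeR quasi-likelihood test, with Benjamini-Hochberg adjustment over all genes tested. IGFBP3 is left out of these counts: no DMSO library of CAMA-1 carried it past the low-count filter, which it passed there only through its abemaciclib libraries, and it did not pass in ZR-75-1. In CAMA-1, abemaciclib called 6 of 8 members, 4 higher and 2 lower. Of all 11053 genes tested in that line, 40.3% were called with abemaciclib, 20.3% higher and 20.1% lower. Palbociclib called 7 of 8 members in CAMA-1, 5 higher and 2 lower, against 37.1% of all genes, 18.4% higher and 18.7% lower. In ZR-75-1, abemaciclib called 4 of 8 members, 3 higher and 1 lower, against 36.2% of 11017 genes, 17.9% higher and 18.3% lower. Palbociclib called 3 of 8 there, 2 higher and 1 lower, against 27.9%, 14.5% higher and 13.4% lower. The 2 drugs share the DMSO libraries of a line, so their comparisons are not independent. In RNA from whole cultures, more cells expressing a gene and more RNA per cell cannot be told apart.

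IGF1R rose in CAMA-1 with both drugs and did not pass the test in ZR-75-1. In CAMA-1 the DMSO libraries had 8.94, 3.35 and 3.45 CPM, those given abemaciclib 10.1, 11.2 and 14.7, and those given palbociclib 13.0, 12.2 and 12.6. All 6 drug libraries lay above the 3 DMSO libraries, although one DMSO library stood apart from the others at 28 counts against 10 and 15. The rise was 2.27-fold with abemaciclib (log2 fold change 1.18, SE 0.32, adjusted p = 0.0023) and 2.40-fold with palbociclib (1.26, SE 0.31, adjusted p = 0.0010). Without that DMSO library, replicate 1, the log2 values were 1.76 and 1.84. In ZR-75-1, IGF1R had 28.2, 28.2 and 34.9 CPM with DMSO, 28.9, 30.9 and 25.7 with abemaciclib and 33.9, 27.8 and 41.5 with palbociclib. These 3 groups overlapped, and the log2 changes were −0.10 (95% interval −0.44 to 0.25, adjusted p = 0.71) and 0.18 (−0.14 to 0.51, adjusted p = 0.44). IGF1R lies on chromosome 15, 98648539 to 98964530 (plus strand, GRCh38), with 21 exons in its canonical transcript. SYNM-AS1 overlaps its last exon on the opposite strand, and whether the authors' counting used strand was not stated.

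INSR also rose in CAMA-1 with both drugs. Its DMSO libraries there had 28.1, 28.5 and 29.4 CPM, those given abemaciclib 45.5, 40.8 and 38.1, and those given palbociclib 46.4, 52.9 and 42.9. Neither drug group overlapped DMSO, and the changes were 1.42-fold (log2 0.50, SE 0.14, adjusted p = 0.0038) and 1.62-fold (0.69, SE 0.14, adjusted p = 6.8e-05). In ZR-75-1 it had 16.1, 20.3 and 21.8 CPM with DMSO, 14.9, 13.6 and 21.3 with abemaciclib and 17.95, 22.0 and 21.8 with palbociclib. The ZR-75-1 groups overlapped, with log2 changes of −0.24 (95% interval −0.67 to 0.19, adjusted p = 0.42) and 0.08 (−0.33 to 0.49, adjusted p = 0.81). INSR spans chromosome 19, 7112255 to 7294414, on the minus strand.

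IGF2R, the IGF2 scavenger, rose with abemaciclib in both lines. In CAMA-1 it had 33.9, 36.8 and 20.5 CPM with DMSO, 59.03, 61.4 and 60.6 with abemaciclib and 43.8, 48.7 and 52.7 with palbociclib. Both drug groups lay above DMSO, by 1.98-fold with abemaciclib (log2 0.99, SE 0.15, adjusted p = 7.6e-07) and 1.59-fold with palbociclib (0.67, SE 0.15, adjusted p = 0.00048). In ZR-75-1 the DMSO libraries had 74.7, 80.4 and 88.1 CPM and the abemaciclib libraries 150.3, 139.98 and 140.1, a 1.76-fold rise (log2 0.82, SE 0.10, adjusted p = 1.5e-09). The ZR-75-1 palbociclib libraries had 81.1, 104.8 and 96.9 CPM, with the lowest inside the DMSO range. Their log2 change of 0.21 (SE 0.10, adjusted p = 0.13) did not pass the test. Without palbociclib replicate 1 it was 0.31 with an adjusted p of 0.025. IGF2R spans chromosome 6, 159969082 to 160113507, on the plus strand.

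IRS2 was the member with the largest falls, and it fell with each drug in each line. In CAMA-1 its DMSO libraries had 15.3, 11.4 and 13.6 CPM, those given abemaciclib 4.24, 5.15 and 2.50, and those given palbociclib 7.46, 7.68 and 4.08. No drug library reached the DMSO range. The abemaciclib group was at 0.285 times the DMSO level (log2 −1.81, SE 0.33, adjusted p = 1.5e-05) and the palbociclib group at 0.476 times (−1.07, SE 0.29, adjusted p = 0.0032). The 3 abemaciclib libraries of CAMA-1 rest on 8 to 16 IRS2 counts each. In ZR-75-1, IRS2 had 31.1, 26.7 and 42.1 CPM with DMSO, 5.64, 7.29 and 7.10 with abemaciclib and 9.26, 18.7 and 13.3 with palbociclib. The 3 groups of ZR-75-1 did not overlap each other. The level was 0.200 times that with DMSO for abemaciclib (log2 −2.32, SE 0.25, adjusted p = 2.9e-11) and 0.407 times for palbociclib (−1.30, SE 0.22, adjusted p = 3.7e-06). IRS2 spans chromosome 13, 109752695 to 109786583, on the minus strand, with 2 exons.

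IRS1, the other adaptor, had a lower mean with drug than with DMSO in all 4 comparisons and passed the test in 1. In CAMA-1 its DMSO libraries had 12.8, 19.4 and 10.6 CPM, those given abemaciclib 6.88, 9.01 and 6.25, and those given palbociclib 6.26, 9.96 and 13.6. The abemaciclib libraries lay below DMSO, at 0.507 times its level (log2 −0.98, SE 0.30, adjusted p = 0.0069). That call rests on DMSO replicate 2, the highest library: without it the log2 change was −0.70 (adjusted p = 0.089). The palbociclib libraries overlapped DMSO, with a log2 change of −0.56 (SE 0.28, adjusted p = 0.11). In ZR-75-1, IRS1 had 9.82, 8.28 and 12.1 CPM with DMSO, 4.31, 8.34 and 6.32 with abemaciclib and 9.26, 7.12 and 10.3 with palbociclib. All 3 groups overlapped, and the log2 changes were −0.67 (95% interval −1.32 to −0.02, adjusted p = 0.10) and −0.17 (−0.77 to 0.43, adjusted p = 0.73). IRS1 lies on chromosome 2, 226731312 to 226799820, on the minus strand.

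IGFBP5, a secreted protein that also binds matrix and bone mineral, rose with each drug in each line. In CAMA-1 it had 3964, 4239 and 3491 CPM with DMSO, 4842, 5003 and 5117 with abemaciclib and 6085, 6377 and 6371 with palbociclib. The 3 groups did not overlap, and the rises were 1.25-fold with abemaciclib (log2 0.32, SE 0.06, adjusted p = 1.0e-05) and 1.58-fold with palbociclib (0.66, SE 0.06, adjusted p = 1.1e-12). In ZR-75-1 the DMSO libraries had 1286, 1366 and 1379.9 CPM, those given abemaciclib 3666, 3837 and 3579.6, and those given palbociclib 3177, 3364 and 3460.2. Both drug groups stood well above DMSO, by 2.73-fold with abemaciclib (log2 1.45, SE 0.07, adjusted p = 3.2e-26) and 2.47-fold with palbociclib (1.31, SE 0.06, adjusted p = 7.6e-24). As a share of all counts, IGFBP5 took 0.425% ± 0.039 in CAMA-1 with DMSO (SD, n = 3), 0.489% ± 0.018 with abemaciclib and 0.624% ± 0.016 with palbociclib. In ZR-75-1 it took 0.131% ± 0.0082 with DMSO, 0.359% ± 0.013 with abemaciclib and 0.324% ± 0.019 with palbociclib. By 3′-end count, not scaled by length, it ranked 11 to 16 among the genes of CAMA-1 libraries, and for ZR-75-1 it moved from 76 to 83 with DMSO to 22 to 32 with drug.

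IGFBP2, the neighbour of IGFBP5 on chromosome 2, passed the test in 1 of the 4 comparisons. IGFBP2 (216632828 to 216664436, plus strand) and IGFBP5 (216672105 to 216695549, minus strand) end 7668 bases apart with 0 annotated genes between them. In CAMA-1, IGFBP2 had 191, 206 and 169 CPM with DMSO, 196, 176 and 187 with abemaciclib and 167, 153 and 171 with palbociclib. Each drug group overlapped DMSO but not the other drug group. The log2 change with abemaciclib was −0.04 (95% interval −0.21 to 0.13, adjusted p = 0.72). With palbociclib it was lower (log2 −0.23, SE 0.08, adjusted p = 0.024), a call that was lost without either of DMSO replicates 1 and 2 or palbociclib replicates 1 and 2 (adjusted p of 0.053 to 0.17). In ZR-75-1 it had 168, 146 and 159 CPM with DMSO, 165, 167 and 163 with abemaciclib and 169, 149 and 155 with palbociclib. All 9 libraries of that line fell within 146 to 169 CPM, and the log2 changes were 0.06 (−0.11 to 0.23, adjusted p = 0.64) and −0.01 (−0.17 to 0.16, adjusted p = 0.98).

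IGFBP4, which in most settings withholds IGF from its receptor, rose with palbociclib in both lines. In CAMA-1 it had 99.97, 78.4 and 103 CPM with DMSO, 102, 84.1 and 96.2 with abemaciclib and 137, 130.3 and 130.3 with palbociclib. Only the palbociclib libraries lay above DMSO, by 1.38-fold (log2 0.46, SE 0.10, adjusted p = 0.00015), and the abemaciclib change was −0.02 (95% interval −0.23 to 0.18, adjusted p = 0.88). In ZR-75-1 it had 253, 243 and 240.1 CPM with DMSO, 284, 279.97 and 274 with abemaciclib and 378, 364 and 365 with palbociclib. The 3 groups of that line did not overlap. The palbociclib rise was 1.50-fold (log2 0.58, SE 0.07, adjusted p = 2.4e-09) and the abemaciclib rise 1.13-fold (0.18, SE 0.07, adjusted p = 0.047). The abemaciclib call lay at the threshold and was lost without any 1 of the 6 libraries compared (adjusted p of 0.053 to 0.13). IGFBP4 lies on chromosome 17, 40443450 to 40457725, plus strand.

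IGFBP3, the main carrier of IGFs in blood, was near the detection limit. CAMA-1 libraries with DMSO held 1 count in all, those given abemaciclib 41, and those given palbociclib 12. Relative to library size, abemaciclib gave 46.1 times the DMSO rate (95% exact interval 7.82 to 1865) and palbociclib 11.8 times (1.75 to 506). These intervals cover counting error only, rest on 1 DMSO count and are not a test. Against a floor of 3 counts per DMSO library, the abemaciclib mean was 5.02 times the floor and the palbociclib mean 1.25 times. In ZR-75-1 the same values were 1.68 and 0.978. In ZR-75-1 the sums were 4 counts with DMSO, 14 with abemaciclib and 10 with palbociclib, with ratios of 3.82 (1.20 to 15.96) and 2.32 (0.67 to 10.1). Single ZR-75-1 libraries held 0 to 3, 3 to 6 and 0 to 5 counts. Per library, CAMA-1 had 0, 0.335 and 0 CPM with DMSO, 5.03, 5.15 and 3.12 with abemaciclib and 1.44, 0.854 and 1.02 with palbociclib. The CAMA-1 groups did not overlap, which describes these libraries and is not a test. As the filter admitted IGFBP3 through the group where it was high, no p is given for it. IGFBP3 lies on chromosome 7, 45912245 to 45921874, minus strand.

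**Figure D2:**
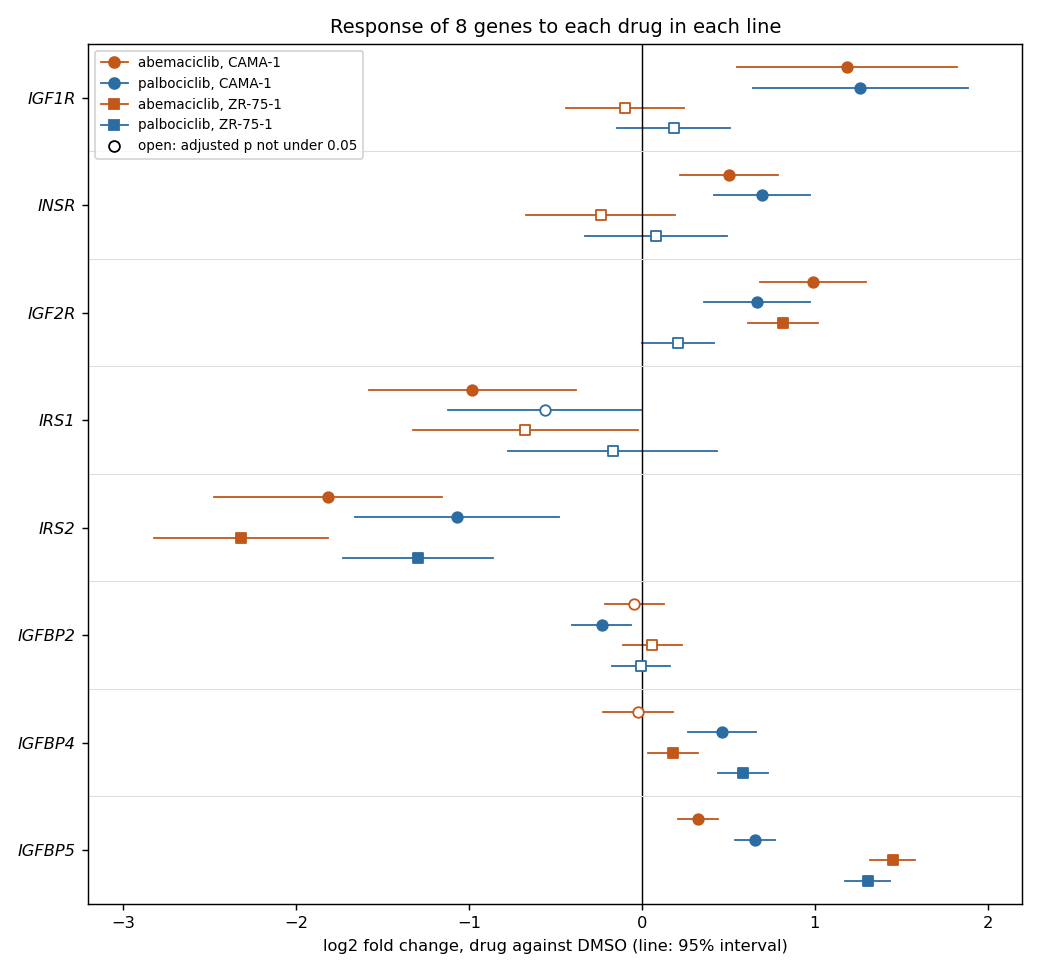
Log2 fold change of drug against DMSO (horizontal axis) with 95% intervals for 8 members in each line, filled where called. IGFBP3 is left out because its fitted fold change depends on the prior count. The 4 IRS2 points lie from −2.32 to −1.07 and the 4 IGFBP5 points from 0.32 to 1.45.

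IRS2 and IGFBP5 were thus the 2 of 8 members tested in both lines that were called the same way in all 4 comparisons. Of the 10124 genes tested in both lines, 9.96% were, with 4.47% higher and 5.48% lower in all 4. IGF1R and INSR were each called with both drugs in CAMA-1, against 0 calls in ZR-75-1. IGF2R was called in 3 of the 4 comparisons and IGFBP4 in 3.

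The second question was whether the 2 inhibitors, given at the same dose and for the same time, differed in their effect on the members. In CAMA-1, 2 of 8 members differed between abemaciclib and palbociclib, 0 higher and 2 lower with abemaciclib, against 2.33% of all genes, 0.796% higher and 1.53% lower. IGFBP4 was lower with abemaciclib (log2 −0.49, SE 0.10, adjusted p = 0.0017), with 84.1 to 102 CPM against 130.3 to 137. IGFBP5 was lower as well (−0.33, SE 0.06, adjusted p = 0.00017), with 4842 to 5117 CPM against 6085 to 6377. For the receptors the differences did not pass the test, at −0.08 for IGF1R (95% interval −0.64 to 0.48), −0.19 for INSR (−0.46 to 0.08) and 0.32 for IGF2R (0.04 to 0.61, adjusted p = 0.30). IRS1 gave −0.42 (−1.04 to 0.21), IRS2 −0.74 (−1.46 to −0.02, adjusted p = 0.37) and IGFBP2 0.19 (0.02 to 0.36, adjusted p = 0.31). IGFBP3 had 41 counts against 12, a ratio of 3.89 (95% exact interval for counting error 2.01 to 8.14). For both adaptors the interval holds a difference as large as the log2 change with palbociclib itself.

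In ZR-75-1, 3 of 8 members differed between the drugs, 1 higher and 2 lower with abemaciclib, against 13.2% of all genes, 5.23% higher and 7.94% lower. IGF2R was 1.52-fold higher with abemaciclib (log2 0.61, SE 0.10, adjusted p = 4.7e-06), with 139.98 to 150.3 CPM against 81.1 to 104.8. IGFBP4 was lower with abemaciclib in this line too (−0.40, SE 0.07, adjusted p = 2.4e-05). IRS2 was lower as well, at 0.492 times the palbociclib level (−1.02, SE 0.28, adjusted p = 0.0076). The IRS2 difference was lost without abemaciclib replicate 1 (−0.91, adjusted p = 0.053) or palbociclib replicate 2 (−0.74, adjusted p = 0.11). IGFBP5 did not pass the test here (0.14, 95% interval 0.02 to 0.27, adjusted p = 0.13). IGF1R gave −0.28 (−0.61 to 0.05), INSR −0.32 (−0.75 to 0.10), IRS1 −0.51 (−1.16 to 0.15) and IGFBP2 0.06 (−0.11 to 0.23). IGFBP3 held 14 counts with abemaciclib and 10 with palbociclib, a ratio of 1.65 (95% exact interval for counting error 0.68 to 4.14). The proliferation genes differed more between the drugs in this line, MKI67 by −4.52 on the log2 scale and CCNA2 by −3.14, and the part of this in the member differences was not tested.

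The third question was how the lines differed. Without drug, 7 of 8 members differed between ZR-75-1 and CAMA-1, 4 higher and 3 lower in ZR-75-1, against 61.3% of 11987 genes, 31.5% higher and 29.8% lower. Each line is a single model, so this compares 2 cultures and not 2 kinds of tumour. IGF1R was 5.91-fold higher in ZR-75-1 (log2 2.56, SE 0.25, adjusted p = 5.2e-14), at 30.4 ± 3.87 CPM against 5.25 ± 3.20 (SD, n = 3). IGF2R was 2.73-fold higher (1.45, adjusted p = 1.1e-14), IGFBP4 2.60-fold (1.38, adjusted p = 4.6e-22) and IRS2 2.47-fold (1.30, adjusted p = 1.9e-06). IGFBP5 was lower in ZR-75-1, at 0.345 times the CAMA-1 level (−1.54, SE 0.06, adjusted p = 2.4e-31). INSR was at 0.674 times (−0.57, adjusted p = 0.0037) and IGFBP2 at 0.838 times (−0.26, adjusted p = 0.0071). IRS1 gave −0.48 (95% interval −1.05 to 0.08, adjusted p = 0.14). IGFBP3, with 4 counts over the ZR-75-1 DMSO libraries and 1 over those of CAMA-1, was not tested.

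In the order of the 6 groups, IGF1R levels of the 3 ZR-75-1 groups were above those of the 3 CAMA-1 groups, and the drug groups of CAMA-1, at 12.0 and 12.6 CPM, remained below the lowest ZR-75-1 group at 28.5. INSR ran the other way, with all CAMA-1 groups (28.7 to 47.4 CPM) above all ZR-75-1 groups (16.6 to 20.6). For IGFBP5 the drug groups of ZR-75-1, at 3694 and 3334 CPM, reached the neighbourhood of CAMA-1 with DMSO at 3898, and the abemaciclib group overlapped it. IRS2 in ZR-75-1 with palbociclib, at 13.7 CPM, overlapped CAMA-1 with DMSO at 13.4. Neighbouring groups of IRS1 overlapped throughout the order. IGF2R and IGFBP4 were each higher in every ZR-75-1 group than in every CAMA-1 group.

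Whether a drug acted differently in the 2 lines was tested by subtracting the log2 response of CAMA-1 from that of ZR-75-1, in a fit over all 18 libraries. With abemaciclib 3 of 8 members differed, against 18.2% of all genes, and with palbociclib 3 of 8, against 20.3%. The same 3 members were called with both drugs, which share the DMSO libraries. IGFBP5 rose more in ZR-75-1, by 1.10 with abemaciclib (SE 0.09, adjusted p = 2.2e-16) and 0.62 with palbociclib (SE 0.09, adjusted p = 5.5e-08). The IGF1R response was lower in ZR-75-1, by −1.31 with abemaciclib (SE 0.35, adjusted p = 0.0039) and −1.11 with palbociclib (SE 0.34, adjusted p = 0.012). The palbociclib value for IGF1R fell to −0.88 without CAMA-1 DMSO replicate 2 (adjusted p = 0.070) and to −0.81 without replicate 3 (adjusted p = 0.11), leaving the high DMSO library in place. INSR differed by −0.77 with abemaciclib (SE 0.25, adjusted p = 0.022) and by −0.64 with palbociclib (SE 0.24, adjusted p = 0.047). Its abemaciclib call was lost in 7 of 12 fits without 1 library and its palbociclib call in 11 of 12, with values of −0.52 to −0.69 in the latter 11. IGF2R with palbociclib was just outside the threshold (−0.49, SE 0.18, adjusted p = 0.0504). IRS2 gave −0.53 (SE 0.44, adjusted p = 0.46) and −0.25 (SE 0.37, adjusted p = 0.70), and IRS1, IGFBP2 and IGFBP4 did not pass the test with either drug. IGFBP3 did not pass the low-count filter of this fit.

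**Figure D3:**
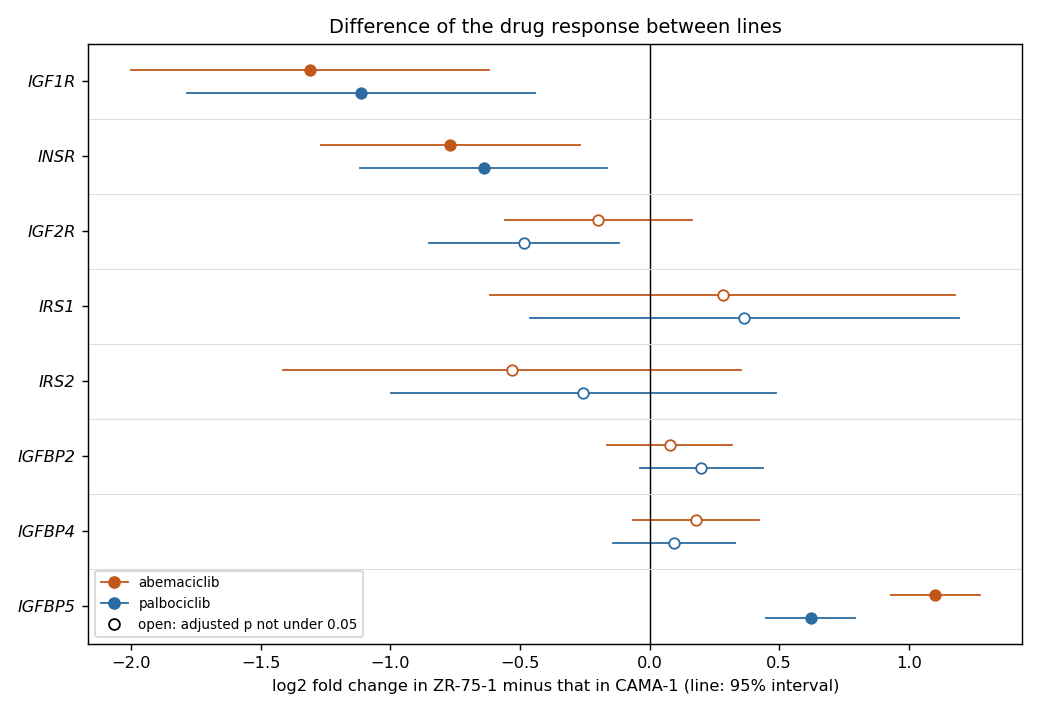
Log2 response of ZR-75-1 less that of CAMA-1 (horizontal axis) with 95% intervals for 8 members and both drugs, filled where called. IGFBP5 lies to the right at 1.10 and 0.62, and IGF1R to the left at −1.31 and −1.11.

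A wider list of 55 genes of the pathway, grouped by role, gave the setting of these members. The ligands themselves were hardly detected: IGF2 and INS had 0 counts in every library, and IGF1 had 0 to 3. Of the other binding proteins and carriers, IGFBP1 had 0 counts in every library, IGFBP6 0 to 2, and IGFBP7 and IGFALS 0 to 3. INSRR, a relative of the insulin receptor, had 0 counts and the adaptor IRS4 0 to 1. The proteases that cut binding proteins, PAPPA and PAPPA2, had 0 to 3 counts in any library. HTRA1, another such protease, had 4 to 17 counts per library in ZR-75-1 and 0 to 3 in CAMA-1. At this depth these genes could not be compared, apart from HTRA1 in ZR-75-1, which did not pass the test with either drug.

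Of the 38 list genes tested in CAMA-1, abemaciclib called 12 higher and 3 lower, or 39.5% against 40.3% of all genes. Palbociclib called 11 higher and 4 lower, again 39.5%, against 37.1% of all genes, so that the list was called about as often as the genes at large. GRB14 is left out of the list counts, since in ZR-75-1 it passed the filter through drug libraries alone and in CAMA-1 it did not pass. Of the other 40 list genes tested in ZR-75-1, abemaciclib called 4 higher and 4 lower, or 20.0% against 36.2% of all genes, and palbociclib 6 higher and 3 lower, or 22.5% against 27.9%. In CAMA-1 the median log2 change of the tested list genes was 0.10 for abemaciclib and 0.13 for palbociclib. The ZR-75-1 medians were 0.02 and 0.13. Over all genes tested it lay between −0.01 and 0.01. Of the 38 list genes tested in both lines 2 were called the same way in all 4 comparisons, against 9.96% of all genes. PIK3R1, a regulatory subunit of PI3K, was one of them. It rose from 18.6 to 23.4 CPM with DMSO in CAMA-1 to 61.9 to 66.9 with abemaciclib (log2 1.57, adjusted p = 1.0e-12) and 45.7 to 46.7 with palbociclib (1.12, adjusted p = 1.5e-08). In ZR-75-1 the changes of PIK3R1 were 0.66 (adjusted p = 0.00011) and 0.58 (adjusted p = 0.00091). PDPK1, the kinase that activates AKT, was the other list gene called higher in all 4, with log2 changes from 0.31 to 0.53 (adjusted p of 7.4e-05 to 0.020). GSK3B, a kinase that AKT inhibits, was the 1 list gene called in opposite directions with the same drug, palbociclib. It rose by 0.24 in CAMA-1 (adjusted p = 0.034) and changed by −0.32 in the other line (adjusted p = 0.013).

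By role, 3 of 5 tested PI3K genes were called higher in CAMA-1 with each drug, and 1 and 2 of 5 in ZR-75-1 with abemaciclib and palbociclib. Over all genes, 20.3% and 18.4% were called higher in CAMA-1, and the ZR-75-1 shares were 17.9% and 14.5%. The PI3K genes called in CAMA-1 included PIK3IP1, an inhibitor of PI3K, at 2.03 and 1.50 in CAMA-1, and PIK3R3, another regulatory subunit, at 1.02 and 0.88. Of 3 forkhead factors, which AKT keeps out of the nucleus, FOXO1 (1.51 and 1.68) and FOXO3 (0.49 and 0.72) were called higher in CAMA-1 with both drugs. FOXO4 was not called there, with a mean of 12.2 CPM with DMSO, 8.97 with abemaciclib and 9.35 with palbociclib. None of the 3 was called in ZR-75-1. FOXO1 had 6 to 12 counts per CAMA-1 library with DMSO. Of these 3 libraries 1 passed the cutoff of the low-count filter for FOXO1, as did all 6 drug libraries of CAMA-1. In the AKT branch, 4 of 17 genes were higher and 3 lower in CAMA-1 with each drug, or 41.2%, near the 40.3% and 37.1% of all genes. EIF4EBP1, a brake on translation that mTOR phosphorylates, was lower in CAMA-1 (−0.83 and −0.60) and with abemaciclib in ZR-75-1 (−0.74, adjusted p = 0.00080). Among the other adaptors, GRB7 was lower in ZR-75-1 with both drugs (−1.12 and −0.83) and in CAMA-1 with palbociclib (−0.44, adjusted p = 0.037). GRB14, an adaptor that inhibits the insulin receptor, had 3 to 10 counts per ZR-75-1 library with DMSO, 18 to 23 with abemaciclib and 19 to 35 with palbociclib. In CAMA-1 it had 0 to 4 counts per library.

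**Figure D4:**
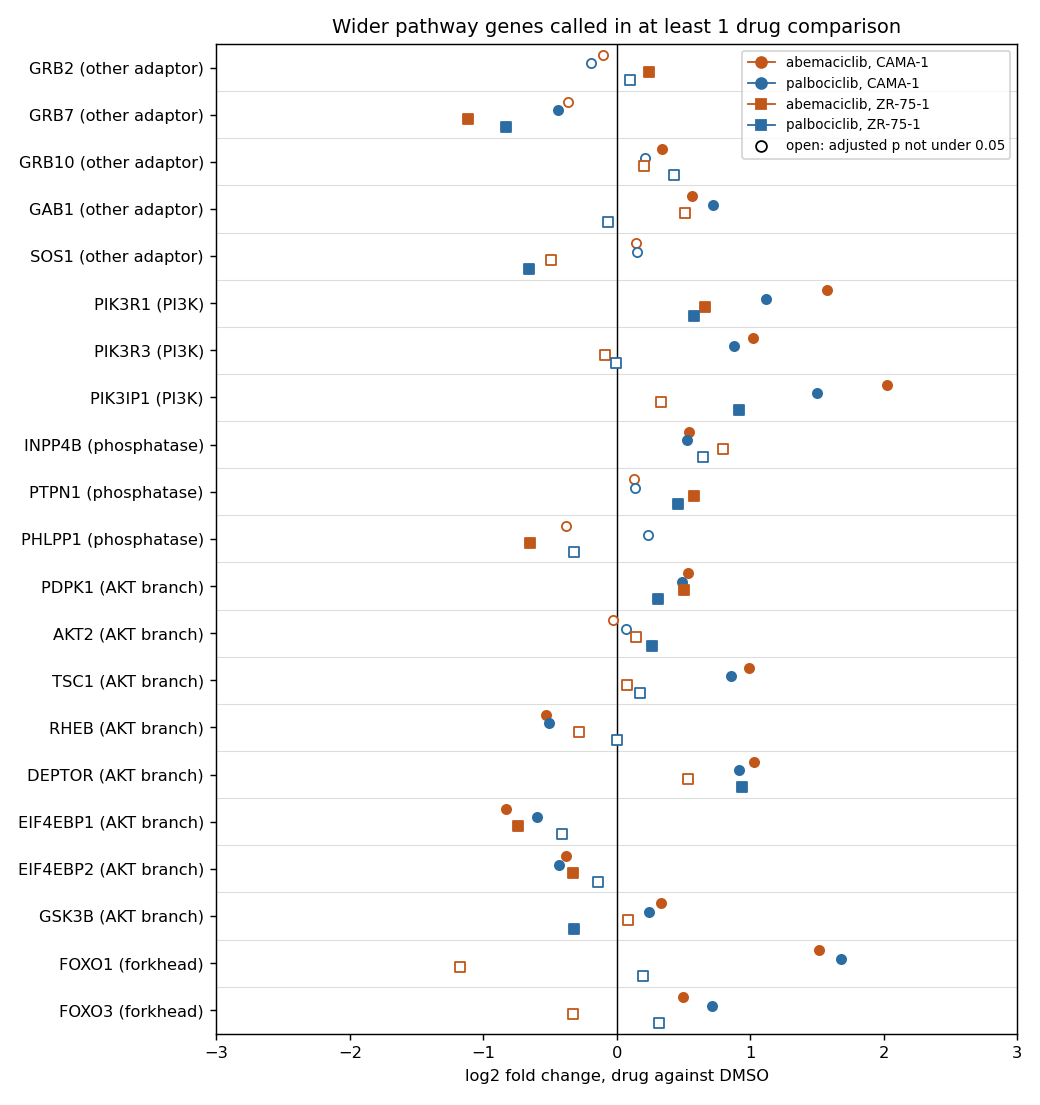
Log2 fold change of drug against DMSO (horizontal axis) for the 21 genes of the wider list other than GRB14 that were called in at least 1 of the 4 comparisons, ordered by role and filled where called. PIK3R1 and PDPK1 are filled and to the right of 0 in all 4.

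In the direct comparison of the drugs, 1 of 38 list genes differed in CAMA-1 (PIK3R1, 0.46 higher with abemaciclib, adjusted p = 0.031), or 2.63% against 2.33% of all genes. In ZR-75-1, 3 of 40 differed, or 7.50% against 13.2%. The latter were GSK3B (0.40, adjusted p = 0.0036), FOXO3 (−0.64, adjusted p = 0.0093) and RPS6KB2 (−0.35). The response differed between lines for 8 of 40 list genes with abemaciclib, or 20.0% against 18.2% of all genes, and for 5 with palbociclib, or 12.5% against 20.3%. PIK3R1 (−0.93 and −0.57), PIK3R3 (−1.13 and −0.92) and TSC1 (−0.94 and −0.71) were called with both drugs, each with the lower response in ZR-75-1. FOXO1 (−2.71, adjusted p = 0.0030) and FOXO3 (−0.84, adjusted p = 0.0074) were called with abemaciclib only. The FOXO1 value rests on few counts, with 2 to 5 per ZR-75-1 library given abemaciclib and 6 to 12 per CAMA-1 library with DMSO. Without drug, 24 of 40 list genes differed between the lines, 14 higher and 10 lower in ZR-75-1. This is 60.0%, near the 61.3% of all genes, and it counts HTRA1 and INPPL1, which did not pass the low-count filter in CAMA-1. CAMA-1 libraries held HTRA1 at 0 to 3 counts, and those with DMSO held INPPL1 at 5 to 9. Both genes are also among the 40 in the counts of response differences.

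The genes most like a member over the 18 libraries were found by Pearson's r on log2 CPM with a pseudocount of 1, after each line's mean was removed, among 11987 genes. For IGFBP5 they were SSTR2, a somatostatin receptor (r = 0.98), PDZK1, a scaffold protein (0.97), and AHCYL1 (0.96). IRS2 was most like TNFAIP8L1 (0.96), CBX5, a heterochromatin protein (0.95), and FANCA, a DNA repair protein (0.95). For IGF2R they were HSPB8 (0.96), RAB11A (0.95) and GNAS (0.95), and for IGFBP4 COPS9 (0.91), FUT3 (0.91) and CERS6 (0.88). Among the members themselves, r was 0.64 between IGF2R and IGFBP5, 0.61 between IGFBP4 and IGFBP5, and 0.60 both between IGF1R and INSR and between IRS1 and IRS2. IRS2 had r of −0.79 with both IGFBP5 and IGF2R. All of these values rest on the same 18 libraries, 12 of them with drug, and describe shared patterns only.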

How the data were processed

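Raw 3′-end read counts per gene were deposited by the authors for 18 libraries as 1 table. Per the labels and the paper's methods, the authors trimmed reads with BBDuk, aligned them with STAR 2.7.5b to hg38 and counted them with featureCounts 2.0.1 on an earlier GENCODE release. The strand of the kit differs between labels and methods. Strand setting, multiply aligned reads and molecular identifiers were not given in the sources used here. The study describes its libraries as independent biological replicates.

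Members were matched by Ensembl identifier, and positions are from GENCODE for GRCh38. A separate edgeR fit was made for the 9 libraries of each line (edgeR 4.0.16, R 4.3.3), with filterByExpr, TMM and the quasi-likelihood F test. Differences between lines used 1 fit over all 18 libraries. P values were adjusted by Benjamini-Hochberg across the genes tested in a fit, and a gene was called at an adjusted p under 0.05. Fold changes come from these fits and CPM values from TMM-scaled totals of all libraries, so they differ slightly. Ratios of summed counts carry exact conditional binomial intervals. The floor was 3 counts. The fits were tested on simulated data with changes planted in well-counted genes only. Genes with as few counts as IGF1R, IRS1 and IRS2 in CAMA-1 with DMSO were not covered.

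The members and lists were chosen with earlier results of these data known. All 9 members are named in every comparison. From the wider list, the rule names genes called the same way in all 4 drug comparisons or opposite ways with the same drug, and other list genes were named after their values were seen. Alternatives were RLE and upper-quartile scaling, DESeq2 1.42.0 (the tool of the study), other filters, mitochondrial genes left out, other sets of libraries in the fit, a replicate block and each library left out in turn. Same-numbered libraries did not deviate together, so the replicate numbers were not used as pairs. Promoter windows come from RefSeq (GRCh38.p14).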

Additional observations from a re-analysis of the deposited data

Results flagged for a closer look

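For 3 members the response to a drug differed between the lines in a direct test of that difference (edgeR quasi-likelihood interaction, the log2 response of ZR-75-1 less that of CAMA-1). IGF1R differed by −1.31 (adjusted p = 0.0039) for abemaciclib and by −1.11 (adjusted p = 0.012) for palbociclib. INSR differed by −0.77 (adjusted p = 0.022) and −0.64 (adjusted p = 0.047). IGFBP5 differed by 1.10 (adjusted p = 2.2e-16) and 0.62 (adjusted p = 5.5e-08), in the other direction. Groups of 3 libraries were too small for a test of single outlying libraries.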

How the results depend on the processing

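Of 1128 recalculated values of the 8 members other than IGFBP3, 1074 kept their direction and side of the threshold, 43 lost a call, 11 gained one and 0 called values reversed. Leaving out 1 library accounted for 33 of the losses and 9 of the gains. IGFBP5 and IRS2 kept all 8 of their calls against DMSO under every alternative run, IGFBP5 with DMSO log2 changes of 0.25 to 1.48 and IRS2 of −2.46 to −0.86. The INSR difference between lines with palbociclib was lost in 17 of 19 alternatives (adjusted p of 0.027 to 0.15 over all), and the IGFBP4 rise with abemaciclib in ZR-75-1 in 9 of 15 (0.035 to 0.13). The number of genes that differed between abemaciclib and palbociclib in CAMA-1 was 151 to 197 with 1 library left out, against 257, with the lowest value without palbociclib replicate 1. Members whose palbociclib response differed between lines numbered 1 to 4 with 1 library left out, against 3, with 1 member without CAMA-1 DMSO replicate 3. The same-numbered pairs had correlations of −0.078 to 0.012 in CAMA-1 and −0.030 to 0.006 in ZR-75-1, and a replicate block gave 4358, 3994, 3953 and 3058 genes called in the 4 comparisons with DMSO. The cause of these shifts was not tested. Depth limits IGFBP3, IRS2, IGF1R and IRS1 most, as single libraries held as few as 0, 8, 10 and 13 counts.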
